A study of Homo with 4 samples.

Results

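The mRNAs described here come from 9 genes and have been reported in other systems to be bound or regulated by the IGF2BP family of RNA-binding proteins: MYC, CCND1, CCND3, CDK6, HMGA2, LIN28B, IGF2, EIF4EBP2 and CD44. The list was made by name, with earlier results of these data known, and its genes were found among the 20263 genes of the count table by their GRCh38 position. All 9 were matched and all 9 passed the filter on low counts, which left 13379 genes for the test. The cells were H1299, a human line from non-small cell lung cancer grown in 1640 medium with fetal bovine serum, and they were infected with lentivirus that carried either a control hairpin (shCtrl, n = 2, genotype given as WT) or a hairpin against IGF2BP3 (shIGF2BP3, n = 2, genotype given as IGF2BP3 knockdown). No other treatment or time point was labelled, and both groups carried a lentiviral hairpin. The labels call the libraries biological replicates 1 and 2 of each group, while the columns of the count table number those of shIGF2BP3 as 2 and 3. The sources used here do not say whether both shIGF2BP3 libraries carry the same hairpin, so the spread within shIGF2BP3 may include a difference between hairpins.

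IGF2BP3 is an oncofetal RNA-binding protein: it is abundant in the embryo, mostly silent in adult tissue and expressed again in many carcinomas. The family binds mRNAs through KH and RRM domains, reads N6-methyladenosine on part of its targets, and is known to prolong the life of bound mRNAs or to change their translation and localisation. IGF2 mRNA gave the family its name. Several of the other members are let-7 microRNA targets (HMGA2, LIN28B, CDK6, MYC, CCND1), and the rest act in the cell cycle, in growth factor signalling, in cap-dependent translation and in adhesion.

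The total estimated count was between 29709686 and 34817513 per library, and mitochondrially encoded genes took 9.11% to 17.02% of it. The counts of replicates were further apart than sampling alone allows (common biological coefficient of variation 22.8%). For genes with high counts, the number of libraries therefore limited the precision more than the depth did. At low counts, such as the 23 to 71 per library of IGF2, the depth limited it as well. The epithelial keratins KRT8 and KRT18 were at 19549 to 42770 counts per library, whereas the other epithelial or lung markers KRT19, EPCAM, CDH1 and NKX2-1 had at most 12 counts and the mesenchymal gene VIM had at least 163082. The blood marker PTPRC was at 0 in every library and the endothelial marker PECAM1 at 9 counts or fewer, and the fibroblast genes COL1A1 and COL1A2 had at most 37. In bulk RNA, fewer cells expressing a gene and less of its RNA per cell cannot be told apart.

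In shIGF2BP3, IGF2BP3 itself was at 26.4 and 24.8 CPM (the estimated count scaled to a common, TMM-normalized library size), against 41.2 and 32.9 CPM in shCtrl. The difference was -0.53 on the log2 scale (95% confidence interval -0.97 to -0.10), which left 69.1% of the control level. At 1.45-fold it was below the 1.5-fold change that the study requires, with unadjusted and adjusted p of 0.0244 and 0.472 (edgeR quasi-likelihood). The side of that cut-off differed between settings. With library totals in place of TMM the log2 difference was -0.619 (unadjusted edgeR p of 0.0376), past 1.5-fold. On length-scaled values (FPKM), limma gave -0.6 on log2(FPKM + 1), with or without a filter, and -0.681 on log2(FPKM + 0.1), also past it. In the other settings with all 4 libraries it stayed between -0.568 and -0.526. The log2 difference of IGF2BP3 was -0.36 without shCtrl replicate 1 and -0.685 without shCtrl replicate 2. The paralogs, which bind overlapping sets of mRNAs, remained expressed in both groups. IGF2BP1 was at 122 and 112 CPM in shCtrl and at 116 and 96.4 CPM in shIGF2BP3, and IGF2BP2 was at 73.7 and 67.4 CPM in shCtrl and at 78.0 and 84.2 CPM in shIGF2BP3. Neither differed by an unadjusted p of at most 0.05 (0.416 and 0.189, edgeR quasi-likelihood), and the intervals of their log2 differences ran from -0.52 to 0.25 and from -0.13 to 0.54.

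Of the 9 mRNAs, IGF2 was lower in shIGF2BP3 and the other 8 were not called in either direction. IGF2 fell 2.35-fold and was by far the least abundant of the group. CD44 was 1.34-fold higher with an unadjusted p of 0.0174, below the 1.5-fold change that the study requires. LIN28B was also higher in both shIGF2BP3 libraries than in either shCtrl library, without passing the test. MYC varied more between replicates than between groups, and CCND1, CCND3, CDK6, HMGA2 and EIF4EBP2 had log2 differences between -0.15 and 0.06 that did not pass the test. To be called, a gene had to differ 1.5-fold or more with an unadjusted p no larger than 0.05 in edgeR's quasi-likelihood test, the cut-offs of the study. By that rule 1 of 9 members was called lower and 0 of 9 higher, where 2.78% of all genes tested were called lower and 2.54% higher. At an unadjusted p of at most 0.05 and any fold, 1 member was lower (IGF2) and 1 higher (CD44), beside 5.12% and 5.43% of all genes. The groups did not overlap for 2 members that were lower in shIGF2BP3 (CCND3 and IGF2) and for 2 that were higher (LIN28B and CD44), and the same was true of 23.5% of all genes in the lower and 23.3% in the higher direction. The median log2 difference was 0.02 over the members and -0.002 over all genes tested. After Benjamini-Hochberg adjustment over all 13379 genes, 0 genes of the table passed an adjusted p of 0.05 in edgeR's quasi-likelihood test, while 1411 had an unadjusted p no larger than 0.05.

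**Figure D1:**
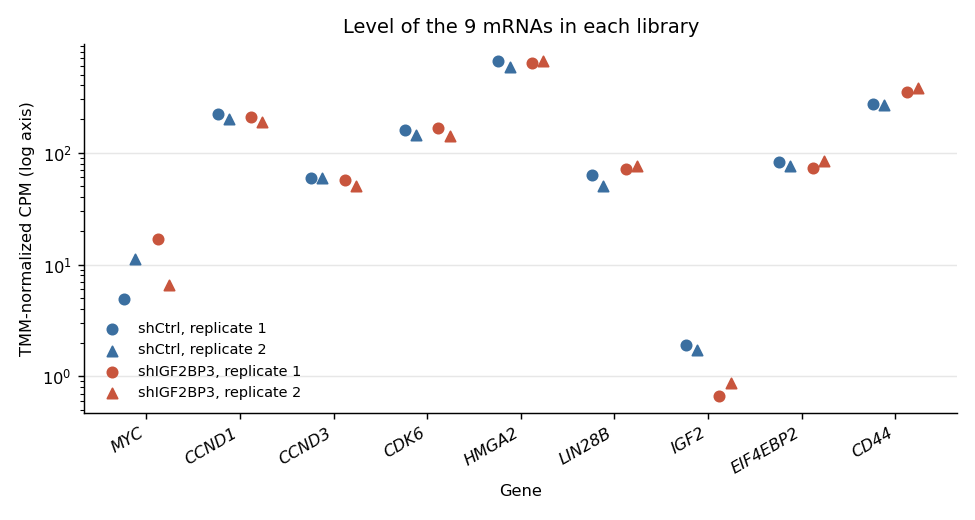
TMM-normalized CPM (log axis) of each of the 9 mRNAs in the 2 shCtrl libraries (blue) and the 2 shIGF2BP3 libraries (red), with circles for replicate 1 and triangles for replicate 2. The groups are apart for IGF2, CD44, LIN28B and CCND3, and the MYC points of the groups interleave between 4.89 and 17.0 CPM.

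**Figure D2:**
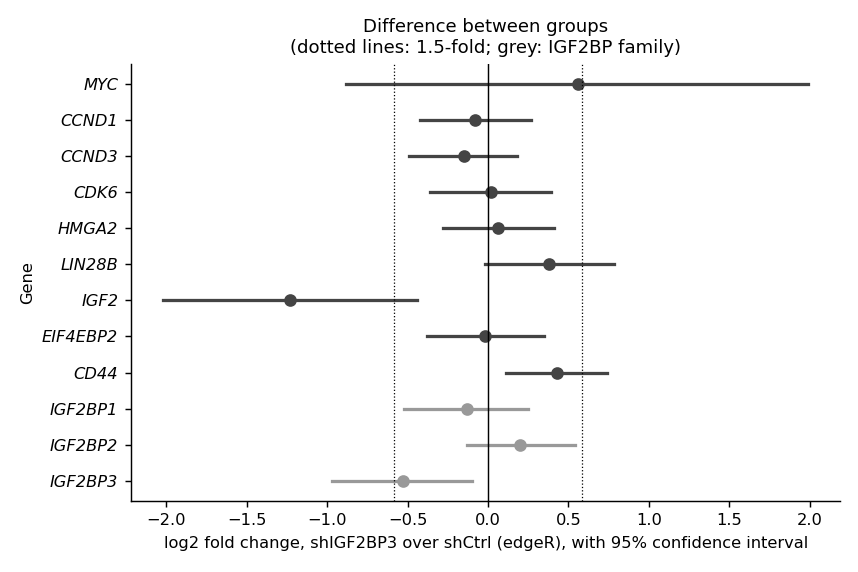
The log2 fold change of shIGF2BP3 over shCtrl (points) with its 95% confidence interval (bars) for the 9 mRNAs (black) and the IGF2BP family (grey), n = 2 libraries per group. The intervals of IGF2 (-2.02 to -0.44), CD44 (0.11 to 0.74) and IGF2BP3 (-0.97 to -0.10) lie to one side of 0, and those of the other genes cross it.

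MYC (ENSG00000136997, chromosome 8, 127735434 to 127741434, plus strand, 7 transcripts) encodes a transcription factor that drives growth and proliferation genes. It was at 4.89 and 11.2 CPM in shCtrl and at 17.0 and 6.50 CPM in shIGF2BP3. The highest and the lowest library belonged to different groups, but the 2 remaining libraries fell the other way, so the groups overlapped. The log2 difference was 0.56 (standard error 0.57, interval -0.88 to 1.99, unadjusted p of 0.372 and adjusted p of 0.717, edgeR quasi-likelihood), and it became -0.29 without shIGF2BP3 replicate 1. The replicates of MYC differed by 1.18 log2 units in shCtrl and by 1.38 in shIGF2BP3, more than in 96.1% and 96.3% of all genes tested, whose median was 0.22 and 0.20.

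The spread of MYC sat in its transcripts. ENST00000613283, which starts 1160 bases inside the gene's 5′ end, had 11 and 190 counts in shCtrl and 305 and 13 counts in shIGF2BP3. It held 6.48% and 42.4% of the gene's summed FPKM (fragments scaled to transcript length and library size) in shCtrl, and 55.1% and 8.09% in shIGF2BP3. ENST00000377970, which runs to the gene's 3′ end, was high where that transcript was low, with 87 and 16 counts in shCtrl and 49 and 72 in shIGF2BP3. ENST00000520751 held the largest mean share (34.2% of FPKM), with 31 and 77 counts in shCtrl and 42 and 23 in shIGF2BP3. ENST00000524013 had 43 and 49 counts in shCtrl and 112 and 56 in shIGF2BP3, and it was the sole transcript of MYC whose groups did not overlap (log2 difference 1.05, interval -0.39 to 2.48, unadjusted edgeR p of 0.107). When ENST00000613283 was left out of the sum, a choice made after seeing the data, MYC was at 4.60 and 5.55 CPM in shCtrl and at 8.20 and 6.03 CPM in shIGF2BP3. The groups then no longer overlapped, and the log2 difference was 0.49 (interval -0.14 to 1.12, unadjusted edgeR p of 0.104). Because the transcript was left out for its spread between replicates, this interval and p do not allow for the choice and are not a test of MYC.

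Cyclin D1 and cyclin D3, with their kinase partner CDK6, phosphorylate the retinoblastoma protein and open the way from G1 into S phase. CCND1 (ENSG00000110092, chromosome 11, 69641087 to 69654474, plus strand, 2 transcripts) was at 221 and 200 CPM in shCtrl and at 210 and 189 CPM in shIGF2BP3. The groups overlapped, and the log2 difference was -0.08 (standard error 0.14, interval -0.42 to 0.27). ENST00000227507, which spans the gene from end to end, held at least 99.2% of its FPKM in every library. CDK6 (ENSG00000105810, chromosome 7, 92604921 to 92836594, minus strand, 2 transcripts) was at 161 and 144 CPM in shCtrl and at 167 and 142 CPM in shIGF2BP3. The shIGF2BP3 libraries enclosed the shCtrl ones, and the log2 difference was 0.02 (standard error 0.15, interval -0.36 to 0.39). ENST00000265734 held 94.8% to 97.8% of its FPKM. The unadjusted p by edgeR's quasi-likelihood test was 0.589 for CCND1 and 0.905 for CDK6, and the intervals leave room for a decrease of up to 1.34-fold and 1.28-fold, respectively.

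CCND3 (ENSG00000112576, chromosome 6, 41934933 to 42050357, minus strand, 13 transcripts) was at 59.3 and 59.5 CPM in shCtrl and at 56.4 and 50.5 CPM in shIGF2BP3. Both shIGF2BP3 libraries lay below both shCtrl libraries, by less than the test could separate (log2 difference -0.15, standard error 0.13, interval -0.49 to 0.18, unadjusted p of 0.301 and adjusted p of 0.671, edgeR quasi-likelihood). The gene has promoters far apart. Transcripts that start within 2 kb of its annotated 5′ end held 15.3% and 25.9% of its FPKM in shCtrl and 17.8% and 16.0% in shIGF2BP3, and the rest came from internal starts. Of these, with a start 109 kb inside the gene, ENST00000414200 had 1164 and 886 counts in shCtrl and 1159 and 924 in shIGF2BP3, and held 52.0%, 41.9%, 59.1% and 65.3% of the FPKM in that order. ENST00000372991, which starts close to it, had 743 and 636 counts in shCtrl and 475 and 276 in shIGF2BP3. Its share was 27.4% and 24.9% in shCtrl against 20.01% and 16.09% in shIGF2BP3, and its log2 difference was -0.68 (interval -1.57 to 0.22, unadjusted edgeR p of 0.0993). The main transcript from the far 5′ end, ENST00000510503, had 247 and 373 counts in shCtrl and 233 and 156 in shIGF2BP3. No transcript of CCND3 was called with edgeR, while DESeq2 gave ENST00000372991 a log2 difference of -0.66 with an unadjusted p of 0.0239.

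HMGA2, an architectural chromatin protein of embryonic tissue whose mRNA carries many let-7 sites, was the most abundant member. HMGA2 (ENSG00000149948, chromosome 12, 65824131 to 65966295, plus strand, 10 transcripts) was at 660 and 584 CPM in shCtrl and at 637 and 664 CPM in shIGF2BP3. The groups overlapped, and the log2 difference was 0.06 (standard error 0.14, interval -0.28 to 0.41, unadjusted edgeR p of 0.656). ENST00000403681, the sole HMGA2 transcript that ends within 1 kb of the gene's 3′ end, held 84.7% and 77.4% of the FPKM in shCtrl and 84.1% and 83.1% in shIGF2BP3. Its log2 difference was 0.11 (interval -0.27 to 0.50). The other HMGA2 transcripts end 2.89 to 123 kb before that point, and some of them differed widely between replicates. ENST00000536545 had 14 and 71 counts in shCtrl and 600 and 66 in shIGF2BP3, ENST00000354636 had 565 and 551 in shCtrl and 414 and 22 in shIGF2BP3, and ENST00000541363 had 534 and 233 in shCtrl and 18 and 105 in shIGF2BP3. The unadjusted p by edgeR's quasi-likelihood test was 0.126, 0.418 and 0.144 for the 3 transcripts, which were named here after their values were seen.

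LIN28B blocks the maturation of let-7 and thereby releases let-7 targets, HMGA2 among them. LIN28B (ENSG00000187772, chromosome 6, 104936616 to 105083332, plus strand, 3 transcripts) was at 62.7 and 50.5 CPM in shCtrl and at 70.8 and 76.7 CPM in shIGF2BP3. Both shIGF2BP3 libraries were above both shCtrl libraries. The log2 difference was 0.38 (standard error 0.16, interval -0.02 to 0.78), with unadjusted and adjusted p of 0.0582 and 0.480 in edgeR's quasi-likelihood test. Without shCtrl replicate 1 it was 0.55 (unadjusted edgeR p of 0.0247), and without shCtrl replicate 2 it was 0.23. On the FPKM scale shCtrl had 11.1 and 7.77 and shIGF2BP3 11.6 and 11.3 FPKM, so that the groups did not overlap there either, although shCtrl replicate 1 lay close to shIGF2BP3. ENST00000345080, which starts 20432 bases inside the annotated 5′ end, held 92.1% to 97.7% of the FPKM and had 2306 and 1697 counts in shCtrl and 2420 and 2101 in shIGF2BP3. Its paralog LIN28A had 2 and 4 counts in shCtrl and 0 in both shIGF2BP3 libraries, too few for the test.

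IGF2, the fetal insulin-like growth factor that signals through IGF1R, was the member that fell. IGF2 (ENSG00000167244, chromosome 11, 2129112 to 2141238, minus strand, 7 transcripts) had 71 and 58 counts in shCtrl and 23 and 24 in shIGF2BP3. That corresponds to 1.89 and 1.71 CPM in shCtrl and to 0.666 and 0.872 CPM in shIGF2BP3. Both shIGF2BP3 libraries lay well below both shCtrl libraries. The log2 difference was -1.23 (standard error 0.32, interval -2.02 to -0.44), which left 42.6% of the control level, with unadjusted and adjusted p of 0.00980 and 0.472 in edgeR's quasi-likelihood test. Without shCtrl replicate 2 the log2 difference was -1.30 (unadjusted edgeR p of 0.0348), and without shIGF2BP3 replicate 2 it was -1.43 (unadjusted edgeR p of 0.0196). Without shCtrl replicate 1 it was -1.15 and without shIGF2BP3 replicate 1 it was -1.04, and the call was lost in both fits (unadjusted edgeR p of 0.0600 and 0.0573). With DESeq2 the unadjusted p was 0.0413.

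The IGF2 signal did not come from the same transcript in every library. In shCtrl replicate 1, 65 of the 71 counts were assigned to ENST00000381395, and 2 to ENST00000416167. In shCtrl replicate 2 all 58 counts were assigned to ENST00000416167, as were all 23 and all 24 in shIGF2BP3. These transcripts share their 3′ end, at 2129112, and start 3948 and 1849 bases inside the gene's 5′ end. Of the 7 transcripts, 4 were at 0 in every library and 1 passed the filter on low counts, so that the difference was measured at the gene and could not be assigned to a promoter. Tested alone, ENST00000416167 had a log2 difference of -0.16 (interval -4.97 to 4.66). IGF2 overlaps the same-strand read-through gene ENSG00000129965, which shares 0.531 of their joint length with the RefSeq gene against 0.593 for the gene used here, and which had 0 counts in every library.

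EIF4EBP2, which holds the cap-binding protein eIF4E inactive until it is phosphorylated by mTOR, was among the members with little difference. EIF4EBP2 (ENSG00000148730, chromosome 10, 70404379 to 70428618, plus strand, 1 transcript) was at 82.6 and 76.4 CPM in shCtrl and at 72.4 and 84.8 CPM in shIGF2BP3. The shIGF2BP3 libraries enclosed the shCtrl ones. The log2 difference was -0.02 (standard error 0.15, interval -0.38 to 0.35, unadjusted edgeR p of 0.913).

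CD44, the surface receptor for hyaluronan, is spliced into a standard form and many variant forms. CD44 (ENSG00000026508, chromosome 11, 35138870 to 35232402, plus strand, 27 transcripts) was at 274.5 and 269.7 CPM in shCtrl and at 352.5 and 379.1 CPM in shIGF2BP3. The replicates lay close together and the groups did not overlap. The log2 difference was 0.43 (standard error 0.13, interval 0.11 to 0.74, adjusted p of 0.472, edgeR quasi-likelihood), and the gene was therefore higher with an unadjusted p of 0.0174 but short of the 1.5-fold rule. The unadjusted p was 0.0502 without shCtrl replicate 2 and 0.106 without shIGF2BP3 replicate 2, with log2 differences of 0.41 and 0.37. Summed FPKM, which weights short transcripts more than counts do, was 103.7 and 89.2 in shCtrl and 121.1 and 101.8 in shIGF2BP3, so that the groups overlapped on that scale, and limma on log2(FPKM + 1) gave 0.21 with an unadjusted p of 0.296.

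The difference of CD44 lay mainly in ENST00000263398, which covers the gene from its 5′ to its 3′ end. It had 7897 and 7104 counts in shCtrl and 10005 and 8981 in shIGF2BP3, and its log2 difference was 0.57 (standard error 0.12, interval 0.22 to 0.93, unadjusted edgeR p of 0.0130), just below 1.5-fold. It is the sole CD44 transcript that ends within 1 kb of the gene's 3′ end. Its share of the gene's counts was 76.5% and 77.8% in shCtrl and 82.2% and 86.0% in shIGF2BP3, and its share of FPKM was 40.4% and 42.3% against 45.3% and 55.6%. ENST00000415148 was called higher, from 14 and 9 counts in shCtrl to 39 and 40 in shIGF2BP3 (log2 difference 2.02, interval 0.51 to 3.53, unadjusted edgeR p of 0.0223), and the call was lost when any library was left out. ENST00000528672 was called lower, from 25 and 13 counts in shCtrl to 0 in both shIGF2BP3 libraries, which is at least 5.31-fold lower against a floor of 3 counts per library (unadjusted edgeR p of 0.0151). That call was lost without shCtrl replicate 2 (unadjusted edgeR p of 0.110). On average over the libraries, these transcripts held 0.258% and 0.394% of the FPKM of CD44.

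Other CD44 transcripts appeared in some libraries and were scarce or missing in their replicates. ENST00000279452 had 849 and 43 counts in shCtrl and 47 and 513 in shIGF2BP3, or 23.3% and 1.35% of the FPKM in shCtrl and 1.13% and 17.0% in shIGF2BP3. ENST00000527889 had 0 and 105 counts in shCtrl and 634 and 0 in shIGF2BP3. ENST00000531873 had 293 counts in shCtrl replicate 2 and 0 elsewhere, and ENST00000433892 had 152 and 669 counts in shCtrl and 422 and 96 in shIGF2BP3. ENST00000525469 stayed between 13.0% and 16.8% of the FPKM in all 4 libraries. With the 4 varying transcripts left out of the sum, a choice made after seeing the data, CD44 was at 247.9 and 236.9 CPM in shCtrl and at 320.5 and 356.9 CPM in shIGF2BP3. Its log2 difference was then 0.48 (interval 0.15 to 0.82, unadjusted edgeR p of 0.0129), and this interval and p do not allow for that choice.

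**Figure D3:**
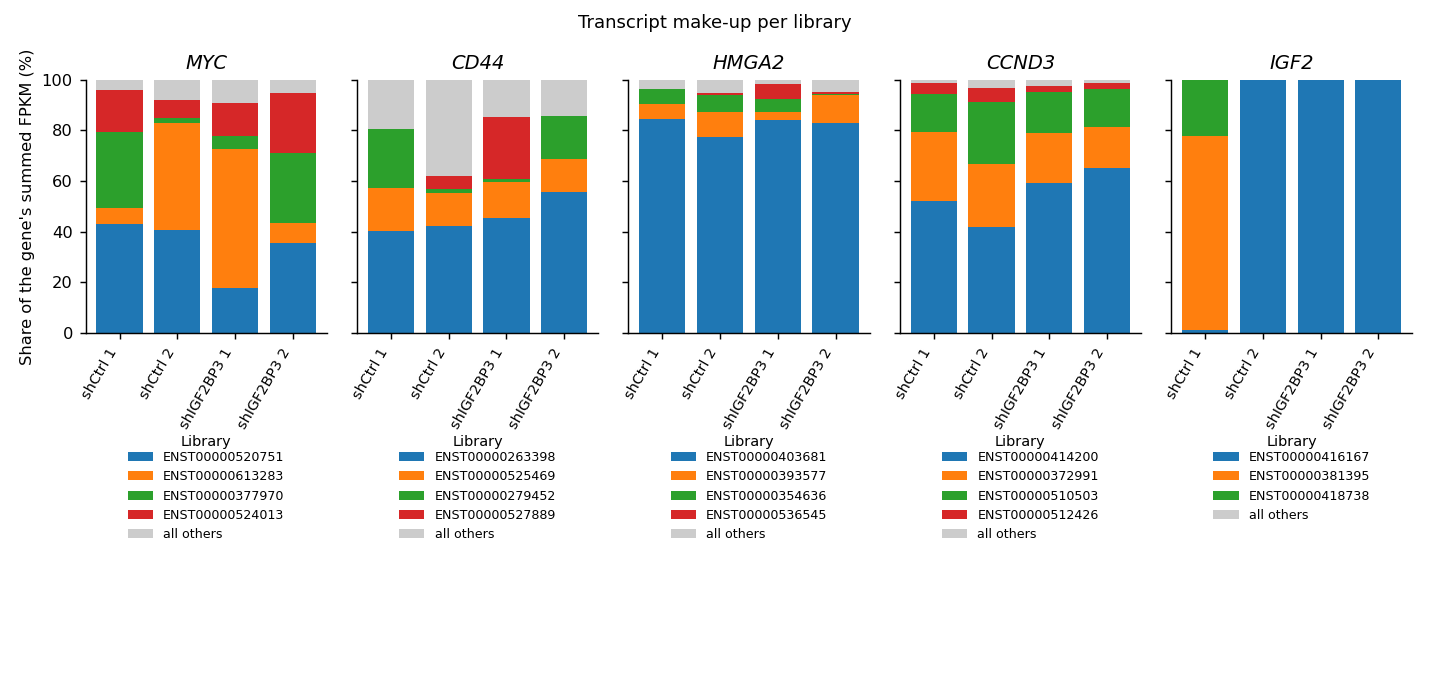
Share of each gene's summed FPKM (%) taken by its leading transcripts (colours, up to 4 per gene) and by all its other transcripts (grey) in the 4 libraries for 5 members. ENST00000263398 of CD44 takes 40.4% and 42.3% in shCtrl and 45.3% and 55.6% in shIGF2BP3, while the make-up of MYC differs as much between replicates as between groups and that of IGF2 sets shCtrl replicate 1 apart.

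The 9 genes have 72 transcripts in the table. Of these, 6 were at 0 in every library and 46 passed the filter. Over all members 1 transcript was called lower and 1 higher, both of CD44, where 3.79% of the 37927 transcripts tested in the series were called lower and 2.50% higher. By edgeR's quasi-likelihood fit 0 transcripts of the series had an adjusted p under 0.05, and 2493 had an unadjusted p of at most 0.05. Counts per transcript are estimates that divide shared reads, so values for single transcripts are less certain than the sums per gene.

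By level per transcript length, the members spanned nearly the whole range of expressed genes. HMGA2 led with a median of 137 FPKM over the 4 libraries, above 96.2% of all genes tested, followed by CD44 with 103 FPKM, CCND1 with 40.4 FPKM and CCND3 with 29.3 FPKM. The ranges of these 4 did not overlap those of their neighbours in the order. CDK6 (11.8 FPKM), LIN28B (11.2 FPKM), EIF4EBP2 (8.99 FPKM) and MYC (5.58 FPKM) came next, and the ranges of neighbours among these 4 overlapped, so that their order is not fixed by these libraries. MYC ranged from 2.97 to 10.2 FPKM, and its median exceeded that of 49.2% of all genes tested. IGF2 was last at 0.188 FPKM, above 5.78% of all genes tested.

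Likeness between genes was measured as the root mean square difference of log2 CPM, after each gene was centred on its own mean over the 4 libraries, and each member was compared with the 90 other tested genes among the members and the related lists described next. CDK6 and EIF4A2 (0.01), CCND1 and EIF4H (0.02), CCND3 and RBL2 (0.04), HMGA2 and EIF4G2 (0.04), and EIF4EBP2 and CCNE1 (0.04) were nearly parallel. LIN28B was nearest to BTRC (0.06), and among the members themselves CD44 and LIN28B were each other's nearest (0.10). MYC (MAX, 0.51) and IGF2 (CDKN1A, 0.40) had no close neighbour by this measure. It was not scaled to the spread of each gene, so genes that differ more between libraries tend to score higher. With 4 libraries these are descriptions of profiles that share the same depth and scaling.

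The surroundings of the members were described with 95 related genes in 7 lists written by function, of which 93 could be matched and 82 passed the filter. Among the 82, 0 were called lower and 1 was called higher. That gene was PEG10, an imprinted gene of retrotransposon origin, at 37.6 and 27.8 CPM in shCtrl and at 35.2 and 393.3 CPM in shIGF2BP3. Its groups overlapped, and without shIGF2BP3 replicate 2 its log2 difference was 0.11. With 1 library left out, 6 (without shCtrl replicate 1), 2 (without shCtrl replicate 2), 3 (without shIGF2BP3 replicate 1) and 1 (without shIGF2BP3 replicate 2) were called higher, and 2 without shCtrl replicate 1 and 4 without shIGF2BP3 replicate 1 were called lower. At an unadjusted p of at most 0.05 and any fold, 4 of the 82 related genes were lower and 7 higher, beside the 5.12% and 5.43% of all genes given above. Both directions together made 13.4% of the 82, beside 1411 of the 13379 genes tested. The median log2 difference of the related genes was -0.02. The medians of the lists lay between -0.08 for the D-cyclin and G1 list and 0.24 for the list of other reported IGF2BP targets.

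**Figure D4:**
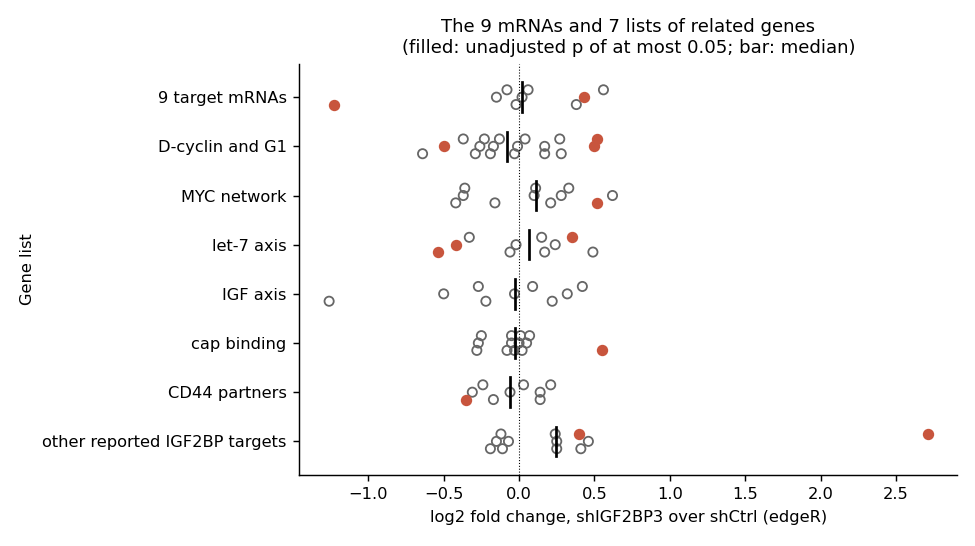
The log2 fold change of shIGF2BP3 over shCtrl (horizontal axis) for the 9 mRNAs and for the genes tested in each of 7 related lists (rows), with filled points at an unadjusted p of at most 0.05 and a bar at each median. The medians lie between -0.08 and 0.24, and the far points are IGF2 among the 9 mRNAs, PEG10 at 2.71 and IRS2 at -1.26, which did not pass the test.

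In the D-cyclin and G1 list 18 genes were tested, and 1 was lower and 2 higher at an unadjusted p of at most 0.05. Over all genes tested, 5.12% were lower and 5.43% higher at that p, and the counts for each list below are to be read beside these shares. CDKN1A, a CDK inhibitor, was at 27.8 and 28.9 CPM in shCtrl and at 20.3 and 19.7 CPM in shIGF2BP3 (log2 difference -0.50, unadjusted edgeR p of 0.0170). E2F3, a factor released by phosphorylated retinoblastoma protein, was at 35.7 and 43.4 CPM in shCtrl and at 51.9 and 61.2 CPM in shIGF2BP3 (0.52, unadjusted edgeR p of 0.0259), and the CDK4 and CDK6 inhibitor gene CDKN2A was at 97.3 and 134.5 CPM in shCtrl and at 156 and 171 CPM in shIGF2BP3 (0.50, unadjusted edgeR p of 0.0448). These genes were named after their values were seen, as were the other list members given below with a p. CDK4, the partner of the D cyclins beside CDK6, was at 165 and 161 CPM in shCtrl and at 164 and 159.9 CPM in shIGF2BP3, and its log2 difference was -0.01 (interval -0.32 to 0.30). CCND2, the remaining D cyclin, was near the floor of expression at 0.767 to 1.65 CPM, with an interval of -0.98 to 1.32.

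In the MYC network, 1 of 11 tested genes passed an unadjusted p of 0.05, namely MGA, a MAX partner that represses MYC sites (43.4 and 38.6 CPM in shCtrl, 64.4 and 53.2 CPM in shIGF2BP3, log2 difference 0.52, unadjusted edgeR p of 0.0204). MYCN was at 0 in every library, and MYCL was at 0.203 to 0.726 CPM with overlapping groups. In the let-7 list, HMGA1, the paralog of HMGA2, was at 1418 and 1603 CPM in shCtrl and at 1121 and 952.8 CPM in shIGF2BP3, so that the groups did not overlap. Its log2 difference was -0.54 (interval -0.94 to -0.15, unadjusted p of 0.0155 and adjusted p of 0.472, edgeR quasi-likelihood), or 1.46-fold. DGCR8, which recognises microRNA precursors for DROSHA, was also lower (-0.42, unadjusted edgeR p of 0.0375), and AGO2, the slicing Argonaute protein, was higher (0.35, unadjusted edgeR p of 0.0402).

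In the IGF list 0 of 9 tested genes had an unadjusted or adjusted p under 0.05 in edgeR's quasi-likelihood fit. The receptor IGF1R was at 25.8 and 22.5 CPM in shCtrl and at 27.2 and 29.1 CPM in shIGF2BP3 (log2 difference 0.22, interval -0.18 to 0.62), and IGF1 was at 0 in every library. In the cap-binding list, the paralogs of EIF4EBP2 did not pass the test. EIF4EBP1 was at 126 and 187 CPM in shCtrl and at 153 and 177 CPM in shIGF2BP3, and EIF4EBP3 was at 3.72 and 4.63 CPM in shCtrl and at 3.39 and 3.49 CPM in shIGF2BP3. EIF4A1, the helicase of the cap-binding complex, was at 785 and 559 CPM in shCtrl and at 926 and 1047 CPM in shIGF2BP3 (log2 difference 0.55, unadjusted edgeR p of 0.0372).

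Among 9 tested partners of CD44, EZR, which links CD44 to the actin cytoskeleton, was lower, at 671 and 666 CPM in shCtrl and at 541 and 506 CPM in shIGF2BP3 (log2 difference -0.35, unadjusted edgeR p of 0.0363). Of 12 other reported IGF2BP targets, 0 were lower and 2 higher at an unadjusted p of at most 0.05, PEG10 among them. In edgeR's quasi-likelihood fit, the related genes named with a p had adjusted p of 0.472.

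**Figure D5:**
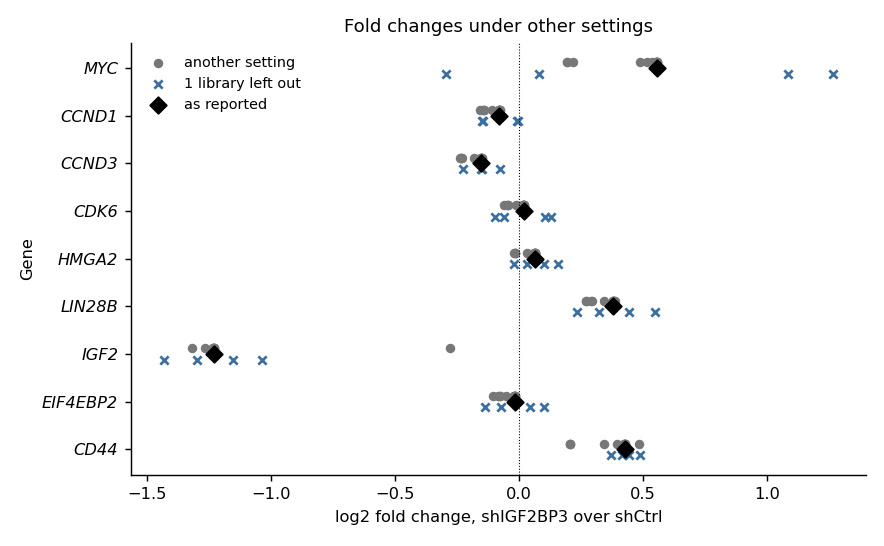
The log2 fold change of shIGF2BP3 over shCtrl for each of the 9 mRNAs as reported (diamonds), under other processing settings (grey points) and with 1 library left out (crosses). IGF2, CCND1 and CCND3 stay below 0 and LIN28B and CD44 stay above 0 in every setting shown, with CCND1 coming as near to 0 as -0.003. MYC spans -0.29 to 1.27.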

How the data were processed

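RNA-seq was measured in 4 libraries of H1299 cells, 2 shCtrl and 2 shIGF2BP3, after Trizol extraction and an mRNA library kit. For each transcript and library, the authors deposited an estimated count (whole numbers, no normalization) and an FPKM value. The submitters' processing notes name CASAVA, Trimmomatic, HISAT2, bedtools, FastQC and GRCh38, while the counting tool and the annotation are not given in the sources used here. Counts and FPKM of 95139 transcripts were summed to 20263 genes, and 18222 genes were named where a RefSeq gene (GRCh38.p14) and an Ensembl gene were each other's best overlap, sharing at least 0.5 of their joint length with a lead of 0.2. IGF2 lacked that lead and was assigned to the gene of largest overlap. Genes and transcripts were fitted separately in edgeR 4.0.16 (R 4.3.3; TMM, filterByExpr at 10 counts and 15 in total, glmQLFit and glmQLFTest, prior count 0.125), with Benjamini-Hochberg adjustment over everything tested. The steps were tested on simulated data. P-values set the difference between the groups against the spread between these libraries within a group. In edgeR that spread was estimated in part from all genes or transcripts tested. A common replicate number was not used for pairing.

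The members and lists were chosen with earlier results of these data known. Members were all to be named, with transcripts of at least 10% of their gene's mean FPKM and called ones, called list genes without overlap, and direct paralogs. Alternatives used DESeq2 1.42.0 and limma 3.58.1 among others. Some list genes are not reported here.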

Additional observations from a re-analysis of the deposited data

How the results depend on the processing

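With 2 libraries per group, the calls at 1.5-fold and an unadjusted p of 0.05 rested on few libraries. The 1 member called lower (IGF2) became 0 in limma on log2(FPKM + 1), on log2(FPKM + 0.1) and on log2(FPKM + 1) without a filter, and 0 at an adjusted p of 0.05, and the count ran from 0 (without shCtrl replicate 1 or shIGF2BP3 replicate 1) to 1 when 1 library was left out. In both filtered limma fits IGF2 was under the FPKM minimum and had no value. Related genes called lower, 0 as reported, were 1 with library totals, 1 under the replicate block, 2, 2 and 1 in the limma fits, and 0 to 4 with 1 library left out. Related genes called higher, 1 as reported, were 0 in DESeq2, under the replicate block and at an adjusted p of 0.05, and 1 to 6 with 1 library left out. Member transcripts called lower, 1 as reported, were 2 with library totals, 4 in DESeq2, 0 under the block, 2 in limma, 0 at an adjusted p of 0.05 and 0 (without shCtrl replicate 2) to 2 (without either shIGF2BP3 replicate) with 1 library left out. Those called higher, 1 as reported, were 4, 0, 0 and 0 in DESeq2, the block, limma and the adjusted p, and 0 (without shCtrl replicate 1 or shIGF2BP3 replicate 2) to 3 (without shIGF2BP3 replicate 1) with 1 library left out. Libraries of 1 replicate number deviated together with a correlation of 0.022 only, so the number was not taken as a pairing. Under the replicate block the log2 differences of IGF2, CD44 and LIN28B were -1.24, 0.43 and 0.39. Over all genes, calls lower and higher were 372 and 340, and moved to 485 and 195 with library totals, where the median of all genes was -0.081; to 335 and 125, 440 and 183, and 224 and 96 in the limma fits; to 151 and 108 at 2-fold; to 0 and 0 at an adjusted p of 0.05; and to 322 to 872 and 213 to 680 with 1 library left out, the highest without shIGF2BP3 replicate 1.

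Directions turned for genes near 0. CDK6 was -0.059 with library totals, -0.012 without mitochondrial genes, and -0.042, -0.046 and -0.042 in the limma fits, HMGA2 -0.021 with library totals and -0.017 in each limma fit. The transcript ENST00000265734 was -0.064 and -0.047 with library totals and limma, ENST00000373218 was -0.108, -0.078 and, under the block, -0, and ENST00000416167 was 1.097 under the block. The cause was not tested. With 1 library left out, the log2 differences ran over -0.294 to 1.267 for MYC, -0.095 to 0.131 for CDK6, -0.021 to 0.159 for HMGA2, -0.136 to 0.102 for EIF4EBP2, -0.273 to 0.83 for CCND2, -0.026 to 0.014 for CDK4, -0.179 to 0.386 for EIF4EBP1, -0.523 to 1.307 for MYCL, -0.197 to 2.133 for ENST00000377970, -2.582 to 3.976 for ENST00000613283, -1.097 to 0.316 for ENST00000520751, -0.147 to 0.04 for ENST00000227507, -0.062 to 0.151 for ENST00000265734, -0.003 to 0.244 for ENST00000403681, -1.104 to 3.762 for ENST00000416167, -0.113 to 0.134 for ENST00000373218, -3.122 to 3.024 for ENST00000279452 and -0.039 to 0.441 for ENST00000525469. Of 600 values for single genes and transcripts under alternatives, 513 kept direction and side of the threshold, 25 passed it newly, 18 lost it and 44 turned.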

Other observations

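Some genes of these data depended on 1 library. Among 8995 genes with a mean of at least 10 CPM, the library shCtrl replicate 2 was at least 8-fold below each other library in 5 genes and at least 8-fold above in 1 (0.1 CPM was added to each value). The same count was 12 below and 2 above for shIGF2BP3 replicate 2, 4 and 0 for shIGF2BP3 replicate 1, and 2 and 0 for shCtrl replicate 1. PEG10, at 393.3 CPM in shIGF2BP3 replicate 2 and at 27.8 to 37.6 CPM in the other libraries, belongs to these genes. None of the 7 target mRNAs with that mean level does, and MYC and IGF2 were below it.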
